A study of Mus musculus with 6 samples.

Results

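Histone acetylation and acetyl-CoA enzymes are described here as a group of 37 mouse genes in cultured cells labelled as splenic γδ T cells, the T lymphocytes with a γδ in place of an αβ antigen receptor. The members were chosen by symbol: acetyltransferases, nuclear receptor coactivators, deacetylases, sirtuins, acetyl-CoA enzymes and bromodomain readers. All 37 were found among the 52550 genes that the files list, and all 37 passed the minimum level for testing. The DON group (n = 3 libraries) and the Control group (n = 3 libraries) both came from C57BL/6 spleens. Cells of both groups were kept for 3 days in wells carrying stimulating anti-CD3 and anti-CD28 antibodies, and both received the cytokines IL-23 and IL-1β. The DON group additionally received DON, a compound that the labels do not spell out, and the comparison asks what DON changed. Whether replicates were separate mice or cultures is not stated in the labels, so the spread behind each p-value may be technical.

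Acetyltransferases move an acetyl group from acetyl-CoA to lysines of histones and other proteins, which loosens chromatin and creates docking sites for bromodomain proteins. Deacetylases remove it, the classical ones with a zinc ion and the sirtuins with NAD as a cosubstrate. In activated T cells, glucose, citrate and acetate feed the acetyl-CoA pool, and acetylation of cytokine genes accompanies the commitment of a T cell to the cytokines it makes.

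Depth was similar across libraries, with recovered totals of 35717703 to 40840099 units in DON libraries and 33715873 to 37888926 in Control libraries. All 13 T cell markers examined were above 10 CPM (recovered units scaled to a common library total) in all 6 libraries. Of these Cd3d and Cd2 rose (log2 difference, DON minus Control, 0.42 and 0.33, limma adjusted p = 0.0472 and 0.0258) and none fell, and the 13 summed to 115583 to 130915 normalized counts in DON libraries and 107115 to 107880 in Control libraries. The γ chain genes Tcrg-C1, Tcrg-C2 and Tcrg-C4 had log2 differences of -0.37, -0.47 and -0.62 that did not pass the test. The δ chain gene Trdc stood at 115 to 125 CPM in DON libraries and 120 to 127 CPM in Control libraries, and the α chain gene Trac, which αβ T cells express, at 297 to 349 CPM in DON libraries and 290 to 297 CPM in Control libraries. Trac was thus above Trdc in every library, so the values do not bear out γδ T cells alone, and the share of αβ T cells was not measured. Markers of other cells were present too and moved with DON. Of 13 B cell markers 12 fell, with a summed level of 55728 to 62607 normalized counts in DON libraries and 78670 to 81282 in Control libraries. Of 10 neutrophil markers 8 fell, with sums of 2808 to 3310 in DON libraries and 11957 to 12706 in Control libraries. Of 14 macrophage and monocyte markers 5 rose and 2 fell (sums 23792 to 28163 in DON libraries, 26737 to 28475 in Control libraries), 3 of 11 dendritic cell markers fell (22410 to 24293 and 37985 to 38715), 4 of 8 mast cell and basophil markers fell (3120 to 3264 and 3384 to 3698), and 1 of 8 erythroid markers rose (28730 to 33690 and 24876 to 25734). Of all genes tested, 2.3% rose and 4.15% fell by the same limma test. None of the markers was at 0 in all libraries. The part of these cells in the values below was not tested, and in bulk RNA fewer cells of a type cannot be told apart from less RNA per cell. DON libraries 2 and 3 lay beyond the Control range on one side, with DON library 1 inside that range, for 13.1% of the 17185 genes tested.

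Transcripts of the histone acetylation enzymes differed little between DON and Control cells. Acss1, a mitochondrial enzyme that makes acetyl-CoA from acetate, rose, and Ep300, which encodes the acetyltransferase p300, fell; the other 35 members did not pass the test. These 2 of 37 members are 5.41%, against 6.45% of all genes tested with limma at an adjusted p of 0.05, of which 2.3% were higher and 4.15% lower. The median log2 difference (DON minus Control, of normalized counts plus 1) was 0.05 over the members and 0.00 over all genes tested. The median size of the difference, whatever its direction, was 0.15 for the members and 0.23 for all genes, which were not matched to the members for level. The summed level of the 37 members ranged from 182775 to 191634 normalized counts in DON libraries and from 186605 to 189165 in Control libraries, so these ranges overlapped.

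**Figure D1:**
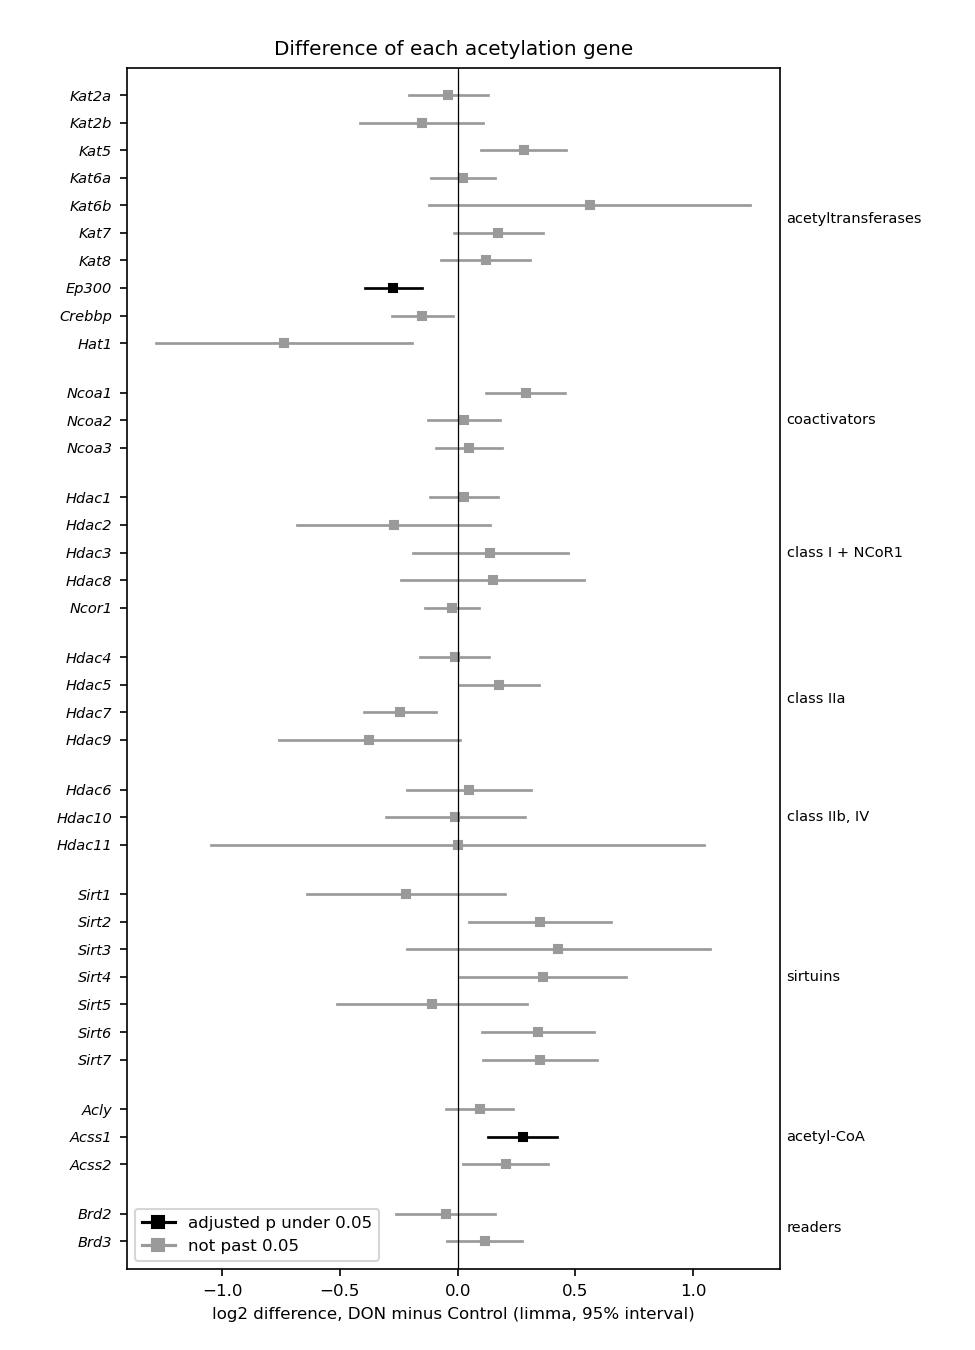
Log2 difference in normalized count plus 1 (DON minus Control) for each of the 37 members, with its 95% confidence interval from limma, grouped by enzyme class; black squares passed an adjusted p of 0.05 and grey ones did not. Acss1 at 0.28 and Ep300 at -0.27 are the black squares, and the widest intervals belong to Hdac11, Kat6b, Sirt3 and Hat1.

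The libraries of the groups did not overlap for 14 members, which is common over all genes too, as the shares by direction show. DON was higher in 10 of them (27%, against 15.7% of all genes tested): Acss1, Acss2, Brd3, Hdac5, Kat5, Kat8, Ncoa1, Sirt4, Sirt6 and Sirt7. DON was lower in 4 (10.8%, against 15.7% of all genes): Crebbp, Ep300, Hat1 and Hdac7. An unadjusted limma p under 0.05 was reached by 13 members, 35.1% against 25.5% of all genes. Replicates of the members were tight, with a median coefficient of variation of 5.59% in DON and 4.73% in Control libraries, against 13.6% and 10.7% over all genes tested. The members were not compared with genes of like level, so this need not be a trait of these enzymes.

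**Figure D2:**
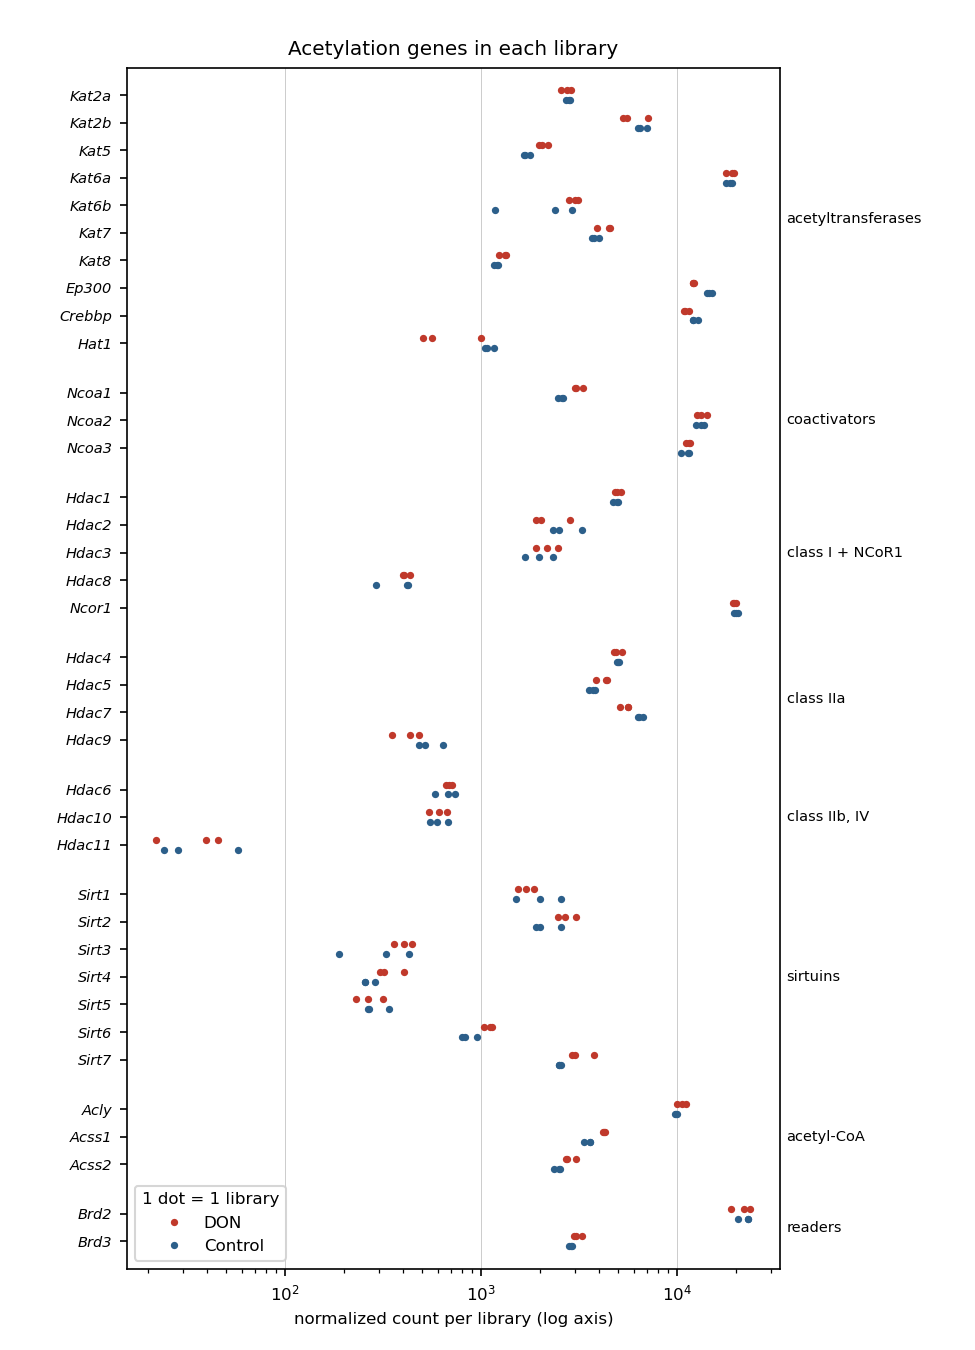
Normalized count of each of the 37 members in the 3 DON and the 3 Control libraries, on a log axis, 1 point per library and grouped by enzyme class. Members span a wide range of levels, from 18953 to 23659 for Brd2 down to 22.0 to 57.4 for Hdac11, and for most the DON and Control points lie on top of each other.

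Per kilobase of exon, the reader Brd2 had the highest level of the members (2746 normalized counts per kb in DON and 2838 in Control libraries, means of 3). Kat6a followed at 2048 in DON and 2018 in Control libraries, then Acly at 1997 in DON and 1871 in Control libraries. The same 3 genes led in both groups, and at the other end Sirt5, Hdac9 and Hdac11 were the lowest in both. Hdac11 averaged 9.25 per kb in DON and 9.52 in Control libraries.

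Among the acetyltransferases, p300 and its close relative CBP (Crebbp) are broad coactivators that acetylate histones at enhancers and promoters. Ep300 (ENSMUSG00000055024.12; chromosome 15, 81585351 to 81652077, plus strand, mm10) had 12228, 12034 and 12047 normalized counts in DON libraries 1 to 3, against 15155, 14212 and 14524 in Control libraries 1 to 3. All DON libraries lay below all Control libraries, and the DON values were almost level with each other. The mean was 12103 ± 108 in DON and 14630 ± 481 in Control libraries (SD, n = 3 each), a log2 difference of -0.27 (SE 0.05, 95% interval -0.39 to -0.15, limma adjusted p = 0.0270). The edgeR quasi-likelihood test gave an adjusted p of 0.0269, and a correction for transcript GC content moved the difference to -0.34 (limma adjusted p = 0.0061). The call ended when a library was left out, at a limma adjusted p of 0.0932 without DON library 2, 0.0967 without DON library 3, 0.105 without Control library 1, 0.0845 without Control library 2 and 0.109 without Control library 3, while it was 0.0058 without DON library 1.

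Crebbp had 11473, 10817 and 11014 normalized counts in DON libraries and 12087, 12057 and 12814 in Control libraries. Here too the groups did not overlap, but the log2 difference of -0.15 did not pass the test (SE 0.06, limma adjusted p = 0.147). The ratio of Ep300 to Crebbp within a library, chosen after the values were seen and free of scaling between libraries, was 1.07 to 1.11 in DON and 1.13 to 1.25 in Control libraries. That ratio was therefore lower in each DON library than in any Control library.

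Hat1, which acetylates newly made histone before its assembly into chromatin, had the lowest difference of all members. Its normalized counts were 994, 558 and 507 in DON libraries and 1069, 1163 and 1046 in Control libraries. DON libraries 2 and 3 held about the same low level, whereas DON library 1 lay just under the Control libraries. The log2 difference was -0.74 (SE 0.24, limma adjusted p = 0.102). Without DON library 1, the highest of the DON values, it was -1.04 (limma adjusted p = 0.00078), in a fit that called 18.8% of all genes. Leaving out any other library gave a limma adjusted p of 0.206 to 0.267.

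**Figure D3:**
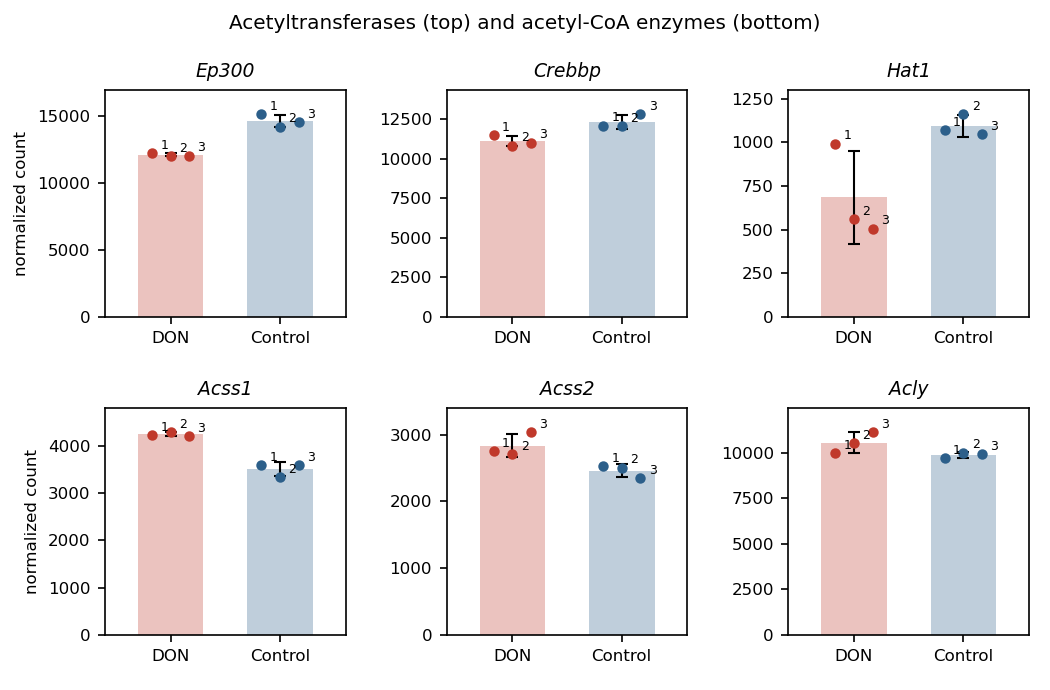
Normalized counts of 3 acetyltransferase genes (Ep300, Crebbp, Hat1, top) and of 3 acetyl-CoA enzyme genes (Acss1, Acss2, Acly, bottom) in DON and Control libraries; bars are means, error bars SD of 3 libraries, points single libraries with their replicate number. In the Hat1 panel DON library 1 stands at 994, near the Control libraries, and DON libraries 2 and 3 at 558 and 507.

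Of the GCN5-type enzymes, which work within the SAGA and ATAC complexes, Kat2a had nearly the same level in both groups (2723 ± 150 in DON and 2797 ± 70.1 in Control libraries, log2 difference -0.04). Its paralog Kat2b had 7082, 5555 and 5281 normalized counts in DON libraries and 6335, 6994 and 6438 in Control libraries. DON library 1 was the highest of the 6 and DON libraries 2 and 3 the lowest, so the log2 difference of -0.15 did not pass (limma adjusted p = 0.432). Without DON library 1 Kat2b was lower by the test, at -0.28 (limma adjusted p = 0.0217), in a fit that called 18.8% of all genes. That library held the highest value, so leaving it out had to lower the DON level, and this fit adds no evidence. Leaving out any other library gave a limma adjusted p of 0.471 to 0.778.

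The MYST family had no member past the test. Kat5 (TIP60), the catalytic subunit of NuA4, had 1970, 2185 and 2049 normalized counts in DON libraries and 1780, 1671 and 1656 in Control libraries. Each DON library exceeded each Control library, with a log2 difference of 0.28 (SE 0.08, limma adjusted p = 0.0744). Kat5 shares 426 bases (12.1%) of its exons with Rnaseh2c on the opposite strand, whose mean was 0.544 times that of Kat5, and reads from the pair cannot be told apart where counting ignores strand. Kat6a, known from work on blood stem cells, was high and level, at 18805 ± 928 in DON and 18521 ± 635 in Control libraries. Its paralog Kat6b had 3124, 2803 and 3004 normalized counts in DON libraries and 2911, 2396 and 1173 in Control libraries. The low value of Control library 3 set most of its spread, and the log2 difference of 0.56 (SE 0.29), the highest of the members, did not pass (limma adjusted p = 0.274). Without Control library 3 it was 0.17 (limma adjusted p = 0.433), no longer the highest. Kat7, the HBO1 enzyme, and Kat8, the MOF enzyme of the MSL and NSL complexes, had log2 differences of 0.17 and 0.12 (limma adjusted p = 0.234 and 0.396). Over the 10 acetyltransferases the median log2 difference was -0.01 (0.00 over all genes), and 2 (20%) lay apart with DON higher and 3 (30%) with DON lower, against 15.7% of all genes in each direction.

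The nuclear receptor coactivators recruit p300 and CBP to hormone receptors and other factors. Ncoa1 had 3018, 3033 and 3324 normalized counts in DON libraries, against 2619, 2476 and 2576 in Control libraries. All DON libraries were above all Control libraries, at a log2 difference of 0.29 that did not pass the threshold (SE 0.07, limma adjusted p = 0.0560). Testing only genes with a mean of at least 5 CPM brought Ncoa1 past the threshold along with Acss1 and Ep300, 3 of 36 members (8.33%, against 9.66% of the genes so tested). Ncoa2 averaged 13404 ± 783 in DON and 13143 ± 621 in Control libraries, and Ncoa3 11442 ± 278 in DON and 11089 ± 576 in Control libraries, with log2 differences of 0.03 and 0.05.

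Class I deacetylases include the catalytic subunits of the nuclear corepressor complexes, and none passed the test by limma, edgeR or DESeq2, nor had any an unadjusted p under 0.05. Hdac1, the most expressed deacetylase per kilobase, averaged 4980 ± 172 in DON and 4890 ± 158 in Control libraries. Its partner Hdac2 had 2825, 2022 and 1898 normalized counts in DON libraries and 2507, 3264 and 2334 in Control libraries. DON library 1 lay inside the Control range and the other DON libraries under it (log2 difference -0.27, SE 0.18, limma adjusted p = 0.374). Hdac3, the enzyme of the NCoR and SMRT corepressors, and Hdac8 had log2 differences of 0.14 and 0.15 with overlapping libraries. The corepressor Ncor1 was among the steadiest members, at 19632 ± 339 in DON and 19957 ± 435 in Control libraries.

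Class IIa deacetylases shuttle between cytoplasm and nucleus and repress MEF2 targets, and Hdac7 is known for its high expression in thymocytes. Hdac7 had 5631, 5132 and 5635 normalized counts in DON libraries, against 6364, 6736 and 6338 in Control libraries. Hdac5 had 3859, 4387 and 4321 normalized counts in DON libraries, against 3741, 3573 and 3798 in Control libraries. The libraries of both genes stood apart, in opposite directions: the log2 difference was -0.25 for Hdac7 (SE 0.07, limma adjusted p = 0.0684) and 0.18 for Hdac5 (SE 0.07, limma adjusted p = 0.188). Because of these opposite directions, the ratio of Hdac7 to Hdac5 within a library had to stand apart too and adds no evidence. That ratio, chosen after the values were seen, was 1.17 to 1.46 in DON and 1.67 to 1.89 in Control libraries. Of 5 such ratios chosen in this way, Acss1 to Acly also stood apart (0.378 to 0.424 in DON and 0.334 to 0.370 in Control libraries), while Hat1 to Kat2a (0.184 to 0.388 in DON and 0.367 to 0.413 in Control libraries) and Sirt7 to Sirt1 (1.56 to 2.23 in DON and 1.00 to 1.66 in Control libraries) overlapped. How often the ratios of other gene pairs stand apart was not computed. Hdac4 averaged 4959 ± 250 in DON and 4997 ± 39.3 in Control libraries, and Hdac9 422 ± 67.6 in DON and 547 ± 84.7 in Control libraries (log2 difference -0.38, limma adjusted p = 0.205). No class IIa member passed by limma or edgeR, 2 had an unadjusted p under 0.05 (25.5% of all genes had), and DESeq2 called Hdac7 lower (8.01% of all genes).

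The remaining zinc-dependent deacetylases were expressed at low levels, and none passed by limma, edgeR or DESeq2 or had an unadjusted p under 0.05. Hdac6, a cytoplasmic tubulin deacetylase, averaged 685 ± 22.6 in DON and 665 ± 75.9 in Control libraries. Hdac10, a polyamine deacetylase, averaged 604 ± 64.3 in DON and 609 ± 64.5 in Control libraries. Hdac11, the class IV enzyme, had 22.0 to 45.6 normalized counts in DON and 24.1 to 57.4 in Control libraries. Its replicates spread widely, with a coefficient of variation of 34.3% in DON and 49.5% in Control libraries. The interval of its log2 difference, not adjusted for the number of genes, ran from -1.05 to 1.05 (SE 0.45). A call needs a stricter adjusted p, so differences beyond this interval could also be missed. The smallest detectable difference was not computed.

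Sirtuins remove acyl groups from proteins while consuming NAD. Of the 7 sirtuins, 5 had log2 differences above 0 (as had 50.05% of all genes) and the median was 0.35 (0.28 after the GC correction), against 0.00 over all genes. No sirtuin passed by limma or edgeR, 4 had an unadjusted p under 0.05 (25.5% of all genes had), and DESeq2 called Sirt6 and Sirt7 higher (4.67% of all genes). Their summed level was 9241, 10651 and 9410 normalized counts in DON libraries and 7804, 8605 and 8855 in Control libraries. Each DON sum was above each Control sum.

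Sirt7, a nucleolar enzyme linked to ribosomal RNA transcription, was the most abundant sirtuin per kilobase. It had 2899, 3768 and 3013 normalized counts in DON libraries and 2488, 2502 and 2550 in Control libraries. The Control libraries were nearly level and all DON libraries lay above them, with DON library 2 the highest (log2 difference 0.35, SE 0.10, limma adjusted p = 0.0884). Sirt6, a chromatin deacetylase involved in DNA repair and glycolytic gene repression, had 1029, 1132 and 1110 normalized counts in DON libraries and 957, 802 and 828 in Control libraries. The groups again did not overlap (log2 difference 0.34, SE 0.10, limma adjusted p = 0.0879). Mitochondrial Sirt4 had 305, 404 and 320 normalized counts in DON libraries and 254, 286 and 254 in Control libraries, also apart (log2 difference 0.36, limma adjusted p = 0.184).

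Sirt2, a mostly cytoplasmic sirtuin, had 2482, 3065 and 2675 normalized counts in DON libraries and 1912, 2567 and 2005 in Control libraries. Control library 2 reached above DON library 1, so the groups overlapped (log2 difference 0.35, limma adjusted p = 0.146). Sirt1, the nuclear sirtuin closest to yeast Sir2, ran the other way, with 1859, 1693 and 1534 normalized counts in DON libraries and 1502, 1993 and 2550 in Control libraries. The Control values spread over the whole DON range and beyond it on both sides (log2 difference -0.22, SE 0.18, limma adjusted p = 0.486). Mitochondrial Sirt3 and Sirt5 were low and had log2 differences of 0.43 and -0.11 with overlapping libraries. Sirt3 shares 418 exon bases with Ric8a and 342 with Psmd13 on the opposite strand, which were 9.68 and 4.89 times as high, so its value is uncertain where counting ignores strand. Sirt7 also shares 124 exon bases with Mafg on its own strand.

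**Figure D4:**
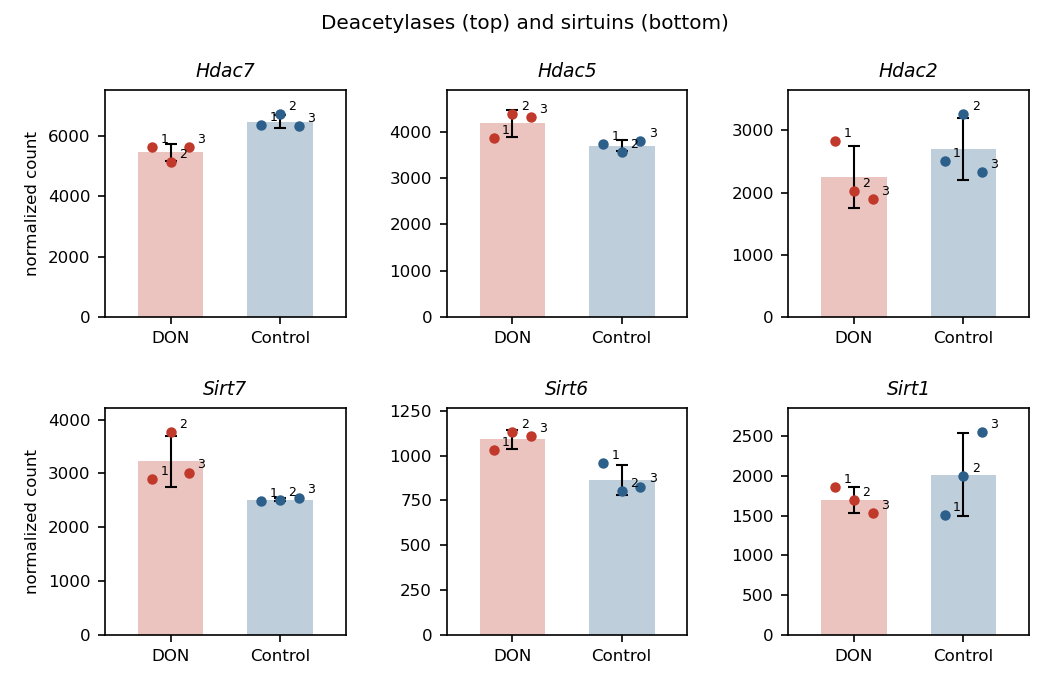
Normalized counts of 3 deacetylase genes (Hdac7, Hdac5, Hdac2, top) and of 3 sirtuin genes (Sirt7, Sirt6, Sirt1, bottom) in DON and Control libraries; bars are means, error bars SD of 3 libraries, points single libraries with their replicate number. Hdac7 lies lower and Hdac5, Sirt7 and Sirt6 higher in every DON library than in any Control library, while the Hdac2 and Sirt1 points overlap.

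The acetyl-CoA enzymes supply the acetyl donor: Acly splits citrate in the cytosol and nucleus, Acss2 activates acetate there, and Acss1 activates acetate in mitochondria. Their promoter sequences are shown because all 3 genes had log2 differences above 0, though only Acss1 passed the test. For Ep300 and Crebbp, also looked up, all 250 upstream bases lay in annotated exons, so no sequence is shown. The sequences come from the RefSeq promoter table for GRCm38.p6, which matched 31 of the 37 members, are limited to the longest stretch of the 250 bases upstream of the start site that lies outside annotated exons, and are written 5′ to 3′ on the gene's strand. Capitals mark the GC box GGGCGG or its reverse complement CCGCCC, the motif bound by SP family factors. The stretches are chr2:150668259-150668337 (minus strand) for Acss1, chr2:155517793-155517947 (plus strand) for Acss2 and chr11:100528001-100528250 (minus strand) for Acly. The Acss1 stretch is upstream of the RefSeq start, by 19 to 97 bases, but lies inside the gene as the files place it, whose 5′ end at 150668500 is farther upstream.
Acss1: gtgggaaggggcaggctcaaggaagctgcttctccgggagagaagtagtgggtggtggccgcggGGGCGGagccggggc
Acss2: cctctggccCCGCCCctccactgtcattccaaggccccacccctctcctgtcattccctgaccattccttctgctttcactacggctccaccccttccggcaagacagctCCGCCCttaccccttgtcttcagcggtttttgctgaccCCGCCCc
Acly: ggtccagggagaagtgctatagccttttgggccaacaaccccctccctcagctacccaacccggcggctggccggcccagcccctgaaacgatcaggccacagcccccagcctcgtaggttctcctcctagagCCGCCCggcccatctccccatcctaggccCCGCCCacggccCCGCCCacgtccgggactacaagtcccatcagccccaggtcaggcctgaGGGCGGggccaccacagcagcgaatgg
Acss1 holds 1 GC box in its 79 bases, Acss2 3 in 155 bases and Acly 4 in 250 bases. At the same distance from the start, 20.5%, 17.4% and 32.7% of 32851 promoters hold at least 1. The CCAAT box, searched on both strands as CCAAT and ATTGG, was in none of these 3 stretches, against 16.5%, 20.7% and 33.8% of promoters. These matches describe letters in the window and not binding. The stretches of Acss1, Acss2 and Acly had a GC content of 70.9%, 62.6% and 68.8%, for which the other promoters were not matched.

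Acss1 (ENSMUSG00000027452.11; chromosome 2, 150618105 to 150668500, minus strand, mm10) had 4225, 4289 and 4212 normalized counts in DON libraries 1 to 3, against 3593, 3339 and 3582 in Control libraries 1 to 3. Every DON library exceeded every Control library, and the DON values again lay close together. The mean was 4242 ± 41.5 in DON and 3505 ± 143 in Control libraries (SD, n = 3 each), a log2 difference of 0.28 (SE 0.06, 95% interval 0.13 to 0.42, limma adjusted p = 0.0451). This p is close to the threshold, and it was 0.0513 with edgeR and 0.0623 after the GC correction (log2 difference 0.21). Without DON library 1 the limma adjusted p was 0.0218. The call ended without DON library 2 (limma adjusted p = 0.134), DON library 3 (0.130), Control library 1 (0.113), Control library 2 (0.157) or Control library 3 (0.130).

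Acss2 had 2758, 2711 and 3038 normalized counts in DON libraries and 2534, 2506 and 2343 in Control libraries. The groups did not overlap, and the log2 difference was 0.20 (SE 0.08, limma adjusted p = 0.150). Acly had 9956, 10541 and 11134 normalized counts in DON libraries and 9711, 10006 and 9911 in Control libraries. DON library 1 lay within the Control range, and the log2 difference was 0.09 (SE 0.06, limma adjusted p = 0.377). Added together, the 3 enzymes had 16939, 17541 and 18384 normalized counts in DON libraries and 15838, 15851 and 15837 in Control libraries. The Control sums were almost identical and all DON sums lay above them.

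The bromodomain readers Brd2 and Brd3 belong to the BET family, which docks on acetylated histones and recruits transcription machinery. Brd2 had 23659, 18953 and 21857 normalized counts in DON libraries and 20515, 23102 and 23009 in Control libraries, and DON held both the highest and the lowest of the 6 (log2 difference -0.05, limma adjusted p = 0.763). Brd3 had 2986, 3032 and 3272 in DON libraries and 2869, 2894 and 2803 in Control libraries. Its DON libraries were all above its Control libraries by a small margin (log2 difference 0.12, SE 0.07, limma adjusted p = 0.331). Neither reader passed by edgeR or DESeq2 or had an unadjusted p under 0.05.

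For part of the members, as for part of all genes, DON library 1 stood nearer to the Control libraries than DON libraries 2 and 3. It lay within the Control range while the other DON libraries lay beyond it on one side for 6 members, Acly, Hdac2, Hdac9, Kat7, Ncor1 and Sirt2 (16.2%, against 13.1% of all genes). Without DON library 1, 12 members passed the limma test (32.4%, against 18.8% of all genes). Acss1, Hdac5, Kat5, Kat7, Ncoa1, Sirt6 and Sirt7 were the 7 higher ones (6.51% of all genes were higher), and Crebbp, Ep300, Hat1, Hdac7 and Kat2b the 5 lower ones (12.3% of all genes were lower). With all 6 libraries DESeq2 called 8 members (21.6%, against 12.7% of the genes it tested), namely Acss1, Kat5, Ncoa1, Sirt6 and Sirt7 higher (4.67% of all genes) and Ep300, Hat1 and Hdac7 lower (8.01%). The edgeR test called Ep300 only (2.7%, against 5.81% of all genes).

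Differences over all genes also moved with the GC content of the transcript, and the members spanned 41.9% (Hdac2) to 60.2% (Hdac7). The median log2 difference of all tested genes was -0.51 up to 40% GC, where no member lies, -0.16 from 40% to 45%, 0.02 from 45% to 50%, and 0.08 in both the 50% to 55% and the 55% to 60% ranges. The 4 members between 40% and 45% GC, Hat1, Hdac2, Hdac8 and Sirt1, had a median of -0.25, the 13 between 45% and 50% one of 0.03, and the 12 between 50% and 55% one of 0.10. The rise did not go on: the 7 members between 55% and 60% had a median of 0.00. Hdac7, the only member above 60%, stood at -0.25, where the median of all genes was -0.01. Across the 37 members, which share the same libraries, the correlation of GC content and log2 difference was 0.265 (Pearson), and 0.219 across all genes. After the GC correction the median log2 difference was 0.01 over the members and 0.01 over all genes, and Ep300 alone passed (2.7% of members, against 8.43% of all genes).

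**Figure D5:**
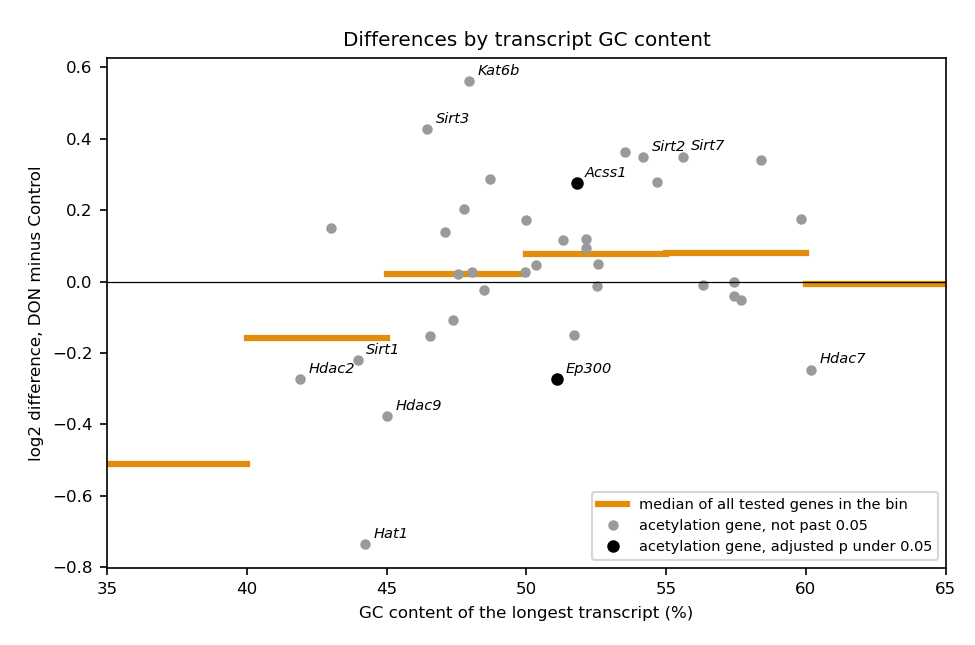
Log2 difference (DON minus Control) against transcript GC content in percent for the 37 members, with the median of all tested genes per GC range drawn as lines; the outermost lines stand for all genes up to 40% and above 60%. The lines step up from -0.51 to 0.08 and end at -0.01, and Hat1 and Hdac2 lie low at the low-GC side, while black points mark Acss1 and Ep300 at 51.8% and 51.1%.

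Partner genes of these enzymes, 183 in 6 lists, gave a like picture: 177 were tested, 4 rose and 5 fell (5.08%, against 6.45% of all genes). Of 19 subunits of the MYST scaffold, MSL and NSL complexes, Jade3, a scaffold of Kat7, showed the strongest change, at 1009, 999.9 and 1017 normalized counts in DON libraries and 520, 444 and 476 in Control libraries. The DON libraries were almost level and stood far above every Control library (log2 difference 1.07, SE 0.10, limma adjusted p = 0.0016). Ing4, a histone-binding subunit of the Kat7 complex, rose too (2440, 2332 and 3129 in DON and 1779, 1856 and 1776 in Control libraries, log2 difference 0.53, limma adjusted p = 0.0391), but shares 34.9% of its exon bases with Gm44597 on the same strand. Ogt, the O-GlcNAc transferase found with the NSL complex, fell (22187 ± 2187 in DON and 30088 ± 3299 in Control libraries, log2 difference -0.44, limma adjusted p = 0.0425), but at -0.27 it did not pass after the GC correction (limma adjusted p = 0.0616). The calls of Ing4 and Ogt ended without Control library 1, 2 or 3 or without DON library 2 or 3, at limma adjusted p of 0.0580 to 0.129 and 0.0896 to 0.131, and that of Jade3 held in each such fit. In this list 2 genes were higher and 1 lower (15.8%, against 6.45% of all genes). The list's median log2 difference was 0.07.

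In the SAGA, ATAC and NuA4 complexes, which carry Kat2a, Kat2b and Kat5, 1 of 38 subunits fell and none rose (2.63%, against 6.45% of all genes). It was Dr1, an ATAC subunit also known as a repressor of basal transcription, at 1990 ± 150 in DON and 3446 ± 116 in Control libraries (log2 difference -0.79, limma adjusted p = 0.0025), and at -0.50 after the GC correction (limma adjusted p = 0.0237). Of 36 subunits of the deacetylase complexes only Sap130 of the Sin3 complex passed (2.78%, against 6.45% of all genes). Sap130 rose (4879 ± 114 in DON and 3927 ± 172 in Control libraries, log2 difference 0.31, limma adjusted p = 0.0325). Among 31 other readers of acetylated lysine none passed by limma or edgeR, 10 had an unadjusted p under 0.05 (25.5% of all genes had), and DESeq2 called 1 higher and 3 lower (4.67% and 8.01% of all genes). Limma called 2 of these readers higher and 2 lower after the GC correction (8.43% of all genes in either direction). Without DON library 1 it called 2 higher and 12 lower (6.51% and 12.3% of all genes). The call of Sap130 ended without Control library 1, 2 or 3 or without DON library 2 or 3 (limma adjusted p = 0.0747 to 0.130), and that of Dr1 held without each library. The median log2 differences of these lists were 0.03, 0.07 and -0.02.

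Of 36 genes of acetyl-CoA supply and use, Idh2, the mitochondrial NADP-dependent isocitrate dehydrogenase, rose (3362 ± 135 in DON and 2685 ± 38.1 in Control libraries, log2 difference 0.32, limma adjusted p = 0.0328). Naa50, an amino-terminal acetyltransferase, fell (1276 ± 182 in DON and 2342 ± 138 in Control libraries, log2 difference -0.88, limma adjusted p = 0.0061), and -0.37 was left after the GC correction (limma adjusted p = 0.0414). Acot7, a thioesterase that hydrolyses acyl-CoA, also fell (636 ± 26.6 in DON and 1069 ± 115 in Control libraries, log2 difference -0.75, limma adjusted p = 0.0098). Of 17 genes of NAD supply and use, the NAD-consuming ectoenzyme Cd38 was the only one past the test and fell (547 ± 113 in DON and 875 ± 62.1 in Control libraries, log2 difference -0.69, limma adjusted p = 0.0415), but at -0.40 it did not pass after the GC correction (limma adjusted p = 0.284). The call of Idh2 ended without Control library 1, 2 or 3 or without DON library 2 or 3 (limma adjusted p = 0.103 to 0.127), and that of Cd38 without Control library 1, 2 or 3 or DON library 3 (0.107 to 0.135). Genes past the test were 8.33% of the acetyl-CoA list and 5.88% of the NAD list, against 6.45% of all genes. The medians of these lists were 0.00 and 0.24.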

How the data were processed

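Transcripts of 6 libraries were analysed: mRNA sequencing of 3 DON and 3 Control samples labelled as splenic γδ T cells, prepared with the VAHTS kit that the labels' protocols name. Per the file headers, the deposited values are normalized counts, a signal per gene that the authors had scaled per library; the submitters' processing notes name HISAT2, StringTie, mm8 and mm10, and the counter, its strand setting and all versions are not given in the sources used here. Every value was a whole multiple of 1 step per library (100% within a tolerance of 0.001), so whole units were recovered, 33715873 to 40840099 per library. A unit need not be 1 read, since 854 to 903 genes per library hold 4 units but only 382 to 446 hold 3. Of 52550 listed genes, 49909 have the same position in GENCODE M21 (GRCm38), which gave exons and GC content, the latter for 99.8% of tested genes.

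Genes with at least 10 normalized counts in at least 3 libraries (17185) were tested with limma 3.58.1 in R 4.3.3 on log2(value + 1), with a variance trend, two-sided, and Benjamini-Hochberg adjustment over all genes at 0.05. This scale understates the change of low genes. Values of genes with the same symbol were summed. The fit was tested on simulated data. Alternatives were a pseudocount of 0.1, other filters, TMM and quantile scaling, equal totals, no variance trend, the replicate number as a block, each library or DON libraries 2 and 3 left out, edgeR 4.0.16 (998 genes called) and DESeq2 1.42.0 (2134) on recovered units, and a loess correction for GC content (span 0.5).

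Members, partner lists, markers and alternatives were chosen with earlier results of these data known. All members are named; the partner genes named are, per list and direction, up to 3 with the smallest adjusted p among those past the threshold.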

Additional observations from a re-analysis of the deposited data

How the results depend on the processing

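The 2 calls among the members lay close to the threshold. Members called higher numbered 1 in the reported fit and 0 with no filter on low values, with no variance trend, with the replicate block, with DON libraries 2 and 3 both left out, with edgeR, with the GC correction and with both block and GC correction, but 2 at a mean of at least 5 CPM and 5 with DESeq2. Members called lower numbered 1, against 0 with no variance trend, the block or DON libraries 2 and 3 left out, and 3 with DESeq2. Leaving out each library in turn gave 0 to 7 higher and 0 to 5 lower, the highest counts without DON library 1. Over 19 alternatives the adjusted p of Ep300 was 0.0019 to 0.125 (past the threshold in 11) and that of Acss1 0.0088 to 0.201 (7), and neither changed sign.

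Partner genes called higher numbered 4, against 1 with no variance trend, with the block, with DON libraries 2 and 3 left out and with block and GC correction, and 9 with DESeq2 (leaving out each library, 1 to 12). Those called lower numbered 5, against 3 in those 4 fits and with no filter, and 9 with DESeq2 (leaving out each library, 3 to 27). Over all genes 395 were higher, against 220 with no filter, 72 with no variance trend, 48 with the block, 61 with DON libraries 2 and 3 left out, 786 with DESeq2, 624 with the GC correction and 166 with block and GC correction (leaving out each library, 65 to 1119). Lower genes numbered 713, against 291 with no variance trend, 240 with the block, 297 with DON libraries 2 and 3 left out, 1348 with DESeq2 and 342 with block and GC correction (leaving out each library, 193 to 2118). The cause of these shifts was not tested. Fits with fewer libraries or the block have less residual information, and the highest counts came from the fit without DON library 1.

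The labels give both groups the numbers 1 to 3 but do not say whether equal numbers were paired. Deviations from the group means correlated at -0.0559, -0.0545 and -0.0520 for equal numbers and at 0.0108 to 0.0400 for unequal ones. Libraries of equal number thus showed no shared positive shift, but these values cannot decide whether the libraries were paired.

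Signs turned only for members without a call. With DON libraries 2 and 3 left out, log2 differences were 0.11 for Kat2b, 0.080 for Hdac2, 0.0045 for Ncor1, 0.093 for Brd2 and -0.61 for Hdac11. With the GC correction, with or without the block, they were -0.010 for Ncoa3, -0.026 for Hdac1, -0.023 for Hdac6 and -0.065 for Hdac11. Quantile scaling gave -0.012 for Kat6a, 0.017 for Hdac4, 0.037 for Hdac10 and 0.0064 for Sirt5, and equal totals 0.0026 for Hdac4 and 0.0044 for Hdac10. Hdac11 was at -0.0039 with TMM, -0.048 with edgeR and -0.045 with DESeq2. Leaving out each library in turn, the differences ran from -0.12 to 0.036 for Brd2, -0.0019 to 0.045 for Hdac1, -0.085 to 0.070 for Hdac10, -0.24 to 0.37 for Hdac11, -0.051 to 0.019 for Hdac4, -0.044 to 0.12 for Hdac6, -0.029 to 0.24 for Hdac8, -0.075 to 0.0035 for Kat2a, -0.0047 to 0.062 for Kat6a, -0.017 to 0.066 for Ncoa2 and -0.23 to 0.012 for Sirt5. Depth limits Hdac11 most, at 22.0 to 57.4 normalized counts per library.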
